A study of Mus musculus with 3 samples.

Results

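Flt1, Kdr, Flt4, Nrp1, Nrp2, Vegfa, Vegfb, Vegfc and Pgf encode receptors, co-receptors and ligands of the vascular endothelial growth factor (VEGF) system. These 9 genes, chosen by symbol out of 21728 protein-coding genes, were followed in chromatin accessibility (ATAC) data of wild-type mouse hearts. Snap-frozen hearts had been prepared as nuclei for joint RNA and ATAC sequencing of single nuclei, of which the RNA data are not used here. There were 3 libraries, 1 each from mice given sunitinib plus Yoda1 (an agonist of the stretch-gated channel PIEZO1), sunitinib (an inhibitor of receptor tyrosine kinases) and vehicle. The titles carry 3 months, and whether this is an age or a treatment time is not given in the labels; nor is the number of hearts behind each library. With 1 library a group there was no replicate check, so no p-value is given and every 95% interval covers counting error only.

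VEGF-A binds the tyrosine kinase receptors VEGFR1 and VEGFR2, encoded by Flt1 and Kdr. VEGFR2 carries most of the growth and permeability signal in endothelial cells, and VEGFR1 binds VEGF-A tightly with weaker kinase activity. VEGF-B and placental growth factor (Pgf) bind VEGFR1, whereas VEGF-C acts through VEGFR3, encoded by Flt4 and best known from lymphatic vessels. Neuropilin 1 and neuropilin 2 (Nrp1, Nrp2) are co-receptors that also bind semaphorins. In the heart, cardiomyocytes and other cells supply ligands to the dense capillary bed, and sunitinib blocks the kinases of the VEGF receptors.

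The RefSeq promoter table (GRCm38.p6, the assembly of mm10) held all 9 genes, and 3 promoters are shown because they mark the contrast that runs through the results. Those of Flt1 and Kdr were most open in vascular endothelial nuclei, and that of Vegfa was open in most classes. Each line holds the bases upstream of the annotated start on the minus strand, 5′ to 3′. Capitals mark GGAA (the core of ETS sites) and GGGCGG (an SP1 site), each searched on both strands, so TTCC and CCGCCC are capitals too.
Flt1, chr5:147726012-147726261: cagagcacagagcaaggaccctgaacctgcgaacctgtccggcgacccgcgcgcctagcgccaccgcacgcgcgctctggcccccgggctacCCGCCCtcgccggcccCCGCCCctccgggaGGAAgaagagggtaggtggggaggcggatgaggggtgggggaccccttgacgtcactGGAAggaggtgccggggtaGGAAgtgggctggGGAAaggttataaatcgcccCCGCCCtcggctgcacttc
Kdr, chr5:75978459-75978705: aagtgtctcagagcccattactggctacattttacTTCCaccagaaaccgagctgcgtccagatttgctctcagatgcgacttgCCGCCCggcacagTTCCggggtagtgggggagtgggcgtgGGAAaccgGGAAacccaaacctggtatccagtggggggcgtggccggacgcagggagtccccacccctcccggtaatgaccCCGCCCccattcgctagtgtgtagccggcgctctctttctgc
Vegfa, chr17:46032378-46032627: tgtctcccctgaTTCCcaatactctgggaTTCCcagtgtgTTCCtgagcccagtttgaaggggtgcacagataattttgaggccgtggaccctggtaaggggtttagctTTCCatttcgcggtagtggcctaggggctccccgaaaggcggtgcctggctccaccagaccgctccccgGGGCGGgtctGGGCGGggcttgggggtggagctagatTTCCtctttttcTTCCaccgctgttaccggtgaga

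The Flt1 promoter held 4 GGAA and 3 GGGCGG matches, that of Kdr 4 and 2, and that of Vegfa 6 and 2. GGAA was present in 93.4% of the 32851 promoters of the table and GGGCGG in 32.7%, so both are common. The Flt1 promoter also held TATAAA, at 31 bases upstream of its start, a match found in 12.4% of all promoters. ACGTG, the core of the hypoxia response element, was found on either strand in 16.6% of all promoters and in none of these 3 stretches; a second Vegfa start of the table, 7206 bp into the gene, held it once. A match describes the letters of the stretch and does not show a bound factor.

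The sunitinib plus Yoda1 library held 583792 unique fragments, the sunitinib library 23653823 and the vehicle library 18704581. Barcodes called as nuclei numbered 12 under sunitinib plus Yoda1 (median 1326 fragments), 3866 under sunitinib (2370) and 2697 under vehicle (2156); 22 called barcodes were shared by the sunitinib and vehicle libraries. Classes of nuclei were therefore used for sunitinib and vehicle, while sunitinib plus Yoda1 entered with its summed fragments. Clusters of nuclei were found without the 5 kb tiles within 50 kb of the 9 genes and named "-like" from marker genes that include none of them. Vascular endothelial-like nuclei numbered 1116 under sunitinib and 1058 under vehicle, and T lymphocyte-like nuclei 1342 under sunitinib and 241 under vehicle. The leading genes of the T lymphocyte-like cluster included Rag1, Dntt, Cd8a and Cd8b1. Its name does not separate mature from immature T cells. One cluster carried the endocardial and the lymphatic endothelial markers together and is called endocardial and lymphatic-like (77 sunitinib and 173 vehicle nuclei). The other named classes had 382 under sunitinib and 246 under vehicle (cardiomyocyte), 284 under sunitinib and 358 under vehicle (fibroblast), 136 under sunitinib and 143 under vehicle (mural, that is pericytes and smooth muscle), 158 under sunitinib and 179 under vehicle (myeloid), 128 under sunitinib and 96 under vehicle (B lymphocyte) and 21 under sunitinib and 47 under vehicle (epicardial or mesothelial) nuclei. A cluster with low enrichment at start sites (222 sunitinib and 156 vehicle nuclei) stayed unnamed and is not used by class.

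Levels are fragments per 1000000 fragments of the class or library (FPM) per kb, counted over the gene and 2 kb upstream. The median protein-coding gene lay between 0.64 and 0.763 on this scale in every named class and library, which is the background for the levels that follow. In epicardial or mesothelial-like nuclei the counts of the 9 genes were low, between 0 and 43.

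Flt1 (VEGFR1; chr5:147561604-147726011, minus strand, mm10) had its highest levels in the endothelial classes. Its level was 2.41 (interval 2.3 to 2.53) under sunitinib and 2.48 (2.34 to 2.61) under vehicle in vascular endothelial-like nuclei, from 1765 fragments under sunitinib and 1301 under vehicle. Endocardial and lymphatic-like nuclei followed with 1.73 under sunitinib and 1.53 under vehicle, and mural-like nuclei with 0.723 under sunitinib and 0.57 under vehicle. The steps between these 3 classes were larger than the spread between the libraries. In the other 6 classes the level stayed between 0.283 and 0.524, with the lowest mean in T lymphocyte-like nuclei (0.309 under sunitinib, 0.322 under vehicle), under the level of the median gene.

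Over the gene and 2 kb upstream, Kdr (VEGFR2, chr5:75932827-75978458, minus strand) had a higher level per kb than the other receptor genes in vascular endothelial-like nuclei. Within 1 kb of the start sites this order did not hold. There Flt1 had 20.7 under sunitinib and 18.5 under vehicle, and Kdr 18.5 under sunitinib and 16.6 under vehicle. The values that follow are again over the gene and 2 kb upstream. Vascular endothelial-like nuclei had 4.88 (4.58 to 5.19) under sunitinib and 4.13 (3.82 to 4.47) under vehicle, above 94.9% of protein-coding genes under sunitinib and 93.6% under vehicle. In endocardial and lymphatic-like nuclei the libraries stood apart, at 3.6 (2.77 to 4.61) under sunitinib and 1.92 (1.5 to 2.43) under vehicle. Epicardial or mesothelial-like nuclei, at 2.1 under sunitinib and 2.34 under vehicle, lay between these and could not be separated from them. T lymphocyte-like nuclei were lowest, at 0.462 under sunitinib and 0.488 under vehicle.

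Flt4 (VEGFR3; chr11:49609263-49652739, plus strand) was highest in vascular endothelial-like nuclei, with 1.76 (1.59 to 1.96) under sunitinib and 1.71 (1.51 to 1.94) under vehicle. The endocardial and lymphatic-like class did not exceed it, at 1.62 (1.07 to 2.35) under sunitinib and 1.02 (0.716 to 1.41) under vehicle from 27 fragments under sunitinib and 36 under vehicle. Mural-like nuclei had 1.06 under sunitinib and 0.862 under vehicle, both within the vehicle interval of the class before (0.716 to 1.41). Myeloid-like and T lymphocyte-like nuclei, at 0.157 to 0.346, were lowest.

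The co-receptor genes were open more widely. Nrp1 (chr8:128358604-128503363, plus strand) had 2.19 (2.07 to 2.3) under sunitinib and 1.95 (1.83 to 2.08) under vehicle in vascular endothelial-like nuclei. Mural-like nuclei came next with 1.8 under sunitinib and 1.42 under vehicle, then myeloid-like nuclei with 1.57 under sunitinib and 1.38 under vehicle; from mural-like nuclei down to B lymphocyte-like nuclei each class overlapped the next. T lymphocyte-like nuclei kept 1.31 under sunitinib and 1.02 under vehicle, above their Flt1 level on the same per-kb scale. Nrp2 (chr1:62703285-62818695, plus strand) had 2.12 in both libraries in vascular endothelial-like nuclei, and 1.83 under sunitinib and 1.53 under vehicle in endocardial and lymphatic-like nuclei. Myeloid-like, mural-like, fibroblast-like and epicardial or mesothelial-like nuclei lay between 1.16 and 1.52, and T lymphocyte-like nuclei had 0.372 under sunitinib and 0.366 under vehicle. The 2 neuropilin genes thus differed in T lymphocyte-like nuclei, where the level of Nrp1 exceeded Nrp2 in both libraries with intervals that did not overlap.

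**Figure D1:**
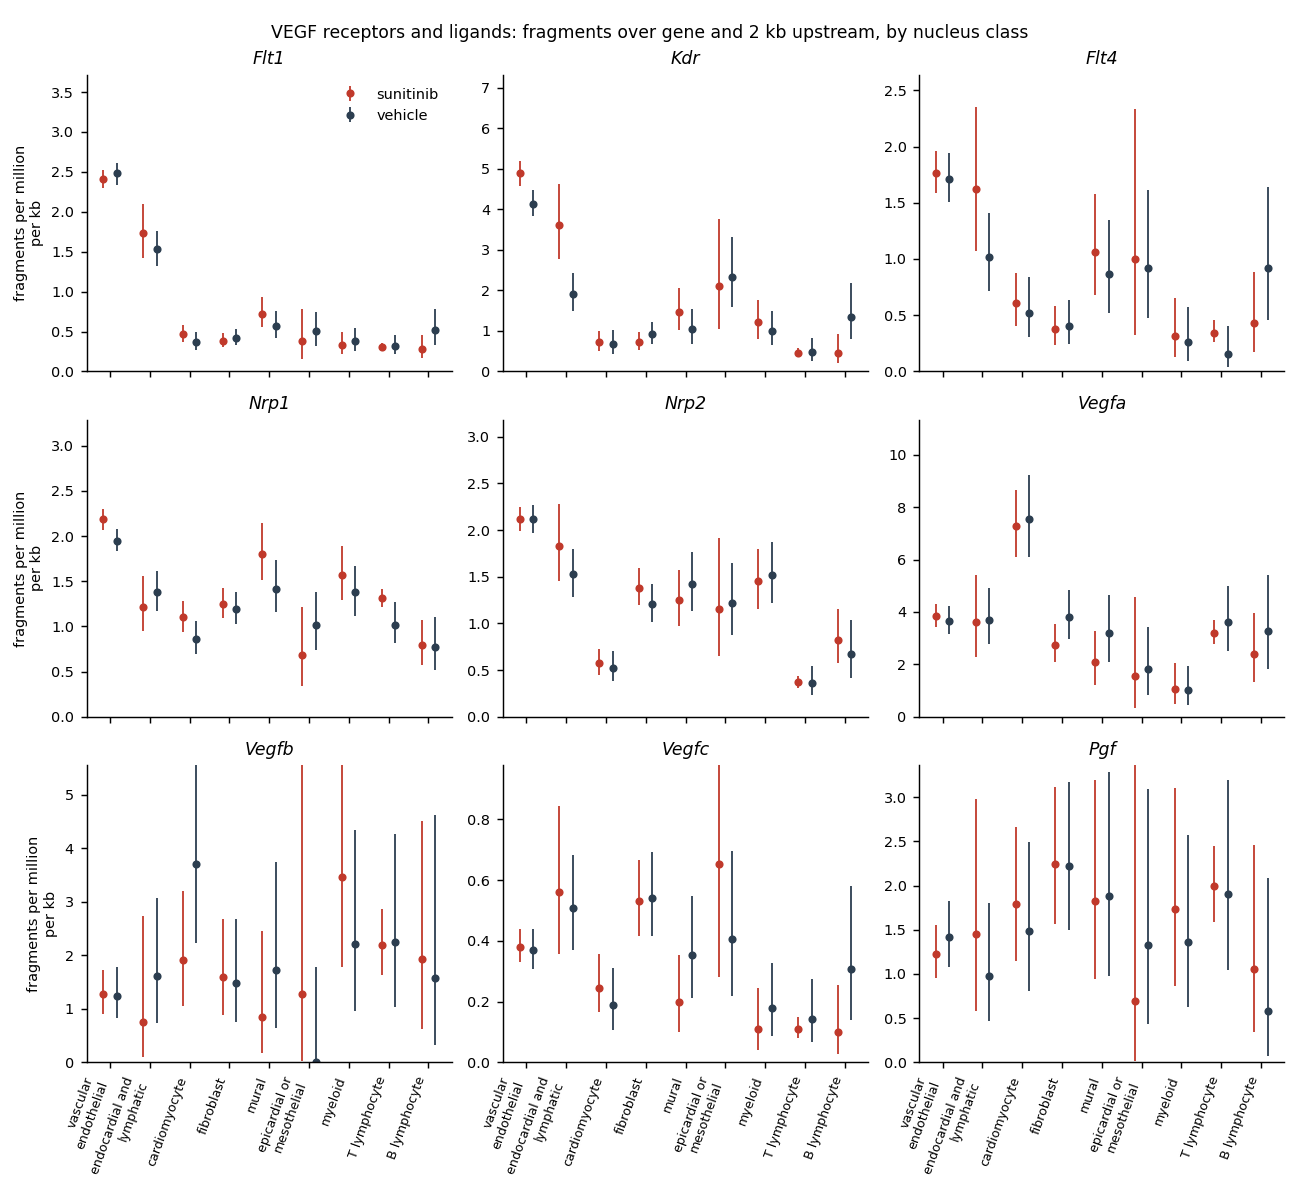
Level of each gene (FPM per kb over gene and 2 kb upstream) in 9 classes of nuclei, sunitinib left of vehicle, with exact Poisson 95% intervals (some run past the top of the axis). Flt1 is near 2.4 in vascular endothelial-like nuclei and at most 0.723 outside the endothelial classes, while Vegfa peaks in cardiomyocyte-like nuclei at 7.28 under sunitinib and 7.55 under vehicle.

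Vegfa (chr17:46016993-46032369, minus strand) was the only one of the 9 genes with its highest level in cardiomyocyte-like nuclei in both libraries. The level there was 7.28 (6.08 to 8.65) under sunitinib and 7.55 (6.1 to 9.24) under vehicle, above 99.1% of protein-coding genes under sunitinib and 99% under vehicle. Vascular endothelial-like nuclei followed at 3.85 (3.42 to 4.31) under sunitinib and 3.66 (3.17 to 4.21) under vehicle, overlapping endocardial and lymphatic-like nuclei at 3.6 under sunitinib and 3.71 under vehicle. Myeloid-like nuclei had the lowest level, 1.07 under sunitinib and 1.03 under vehicle, from 9 fragments in each library.

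The start of Vegfa did not show this difference. Within 1 kb of its annotated start sites the level was 13 (9.3 to 17.7) under sunitinib and 12 (7.87 to 17.7) under vehicle in cardiomyocyte-like nuclei. Vascular endothelial-like nuclei had 12.1 under sunitinib and 11.9 under vehicle and T lymphocyte-like nuclei 13 under sunitinib and 16 under vehicle, so these classes could not be told apart there. The difference lay inside the gene. From 5.5 kb past the start to the gene's end, a split chosen after the profile had been seen, cardiomyocyte-like nuclei had 6.46 (4.98 to 8.23) under sunitinib and 6.93 (5.13 to 9.16) under vehicle. Vascular endothelial-like nuclei had 0.598 (0.391 to 0.877) under sunitinib and 0.833 (0.544 to 1.22) under vehicle in the same stretch, and the other named classes between 0 and 1.25. In the upstream part, from 2 kb before the start to 5.5 kb, cardiomyocyte-like nuclei had 8.76 under sunitinib and 8.56 under vehicle, against 8.21 under sunitinib and 7.6 under vehicle in vascular endothelial-like nuclei. Fragments within 1 kb of the start sites made up 31% under sunitinib and 27.7% under vehicle of the Vegfa fragments of cardiomyocyte-like nuclei, against 54.8% under sunitinib and 56.2% under vehicle in vascular endothelial-like nuclei. In cardiomyocyte-like nuclei, then, the gene was open along its length, and in the other classes mostly at its 5′ part.

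**Figure D2:**
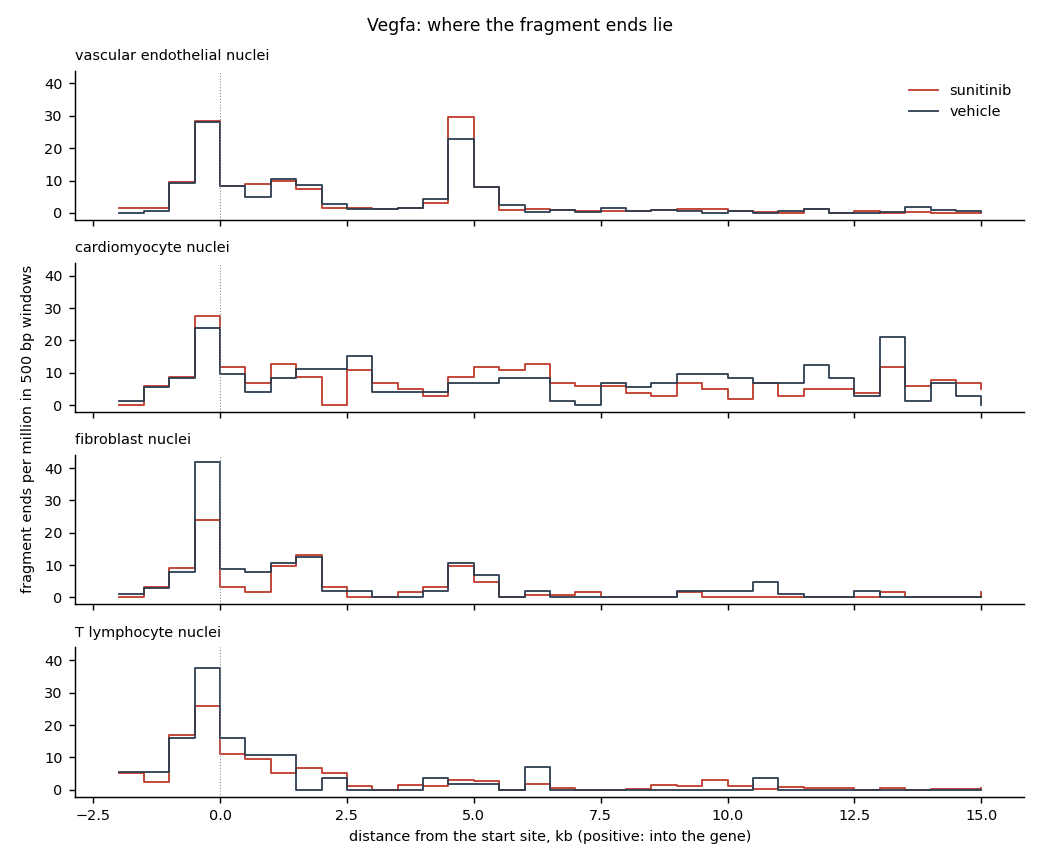
Fragment ends per 1000000 class fragments in 500 bp windows along Vegfa, by distance from the start site in kb, in 4 classes of nuclei, with sunitinib and vehicle as lines. The window before the start is high in all 4 panels, the window at 4.5 kb stands out in vascular endothelial-like nuclei, and past 5.5 kb the cardiomyocyte-like panel is the highest of the 4.

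Within Vegfa, vascular endothelial-like nuclei had a second focus in an intron 4500 bp past the start (chr17:46027370-46027869). It held 77 fragments under sunitinib and 45 under vehicle (17.5 and 14.2 FPM). Cardiomyocyte-like nuclei had 6 under sunitinib and 3 under vehicle there (5.89 and 4.19 FPM), and T lymphocyte-like nuclei 6 under sunitinib and 1 under vehicle (1.78 and 1.79 FPM). Endocardial and lymphatic-like nuclei had 3 under sunitinib and 9 under vehicle (8.17 and 11.6 FPM) and mural-like nuclei 4 under sunitinib and 4 under vehicle (8.03 and 8.25 FPM), with intervals that overlap those of vascular endothelial-like nuclei. The window just upstream of the start held 79 fragments under sunitinib and 53 under vehicle in vascular endothelial-like nuclei (18 and 16.8 FPM) and 55 under sunitinib and 16 under vehicle in T lymphocyte-like nuclei (16.3 and 28.6 FPM).

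The other ligand genes had few fragments. Vegfb (chr19:6982473-6987651, minus strand), whose region shares 24.3% of its length with Dnajc4, had at most 53 fragments in any class. Its level was 3.46 (1.79 to 6.05) under sunitinib and 2.21 (0.953 to 4.35) under vehicle in myeloid-like nuclei and 1.91 (1.05 to 3.21) under sunitinib and 3.7 (2.23 to 5.77) under vehicle in cardiomyocyte-like nuclei. These intervals overlap. Vascular endothelial-like nuclei had 1.27 (0.905 to 1.72) under sunitinib and 1.23 (0.821 to 1.78) under vehicle. Under sunitinib this level was below the interval of myeloid-like nuclei but within that of cardiomyocyte-like nuclei. Under vehicle it was below the interval of cardiomyocyte-like nuclei but within that of myeloid-like nuclei. Vegfc (chr8:54077606-54187096, plus strand), the VEGFR3 ligand, had a low level over the gene and 2 kb upstream in every class. Fibroblast-like nuclei had 0.53 (0.415 to 0.667) under sunitinib and 0.542 (0.415 to 0.694) under vehicle, and endocardial and lymphatic-like nuclei 0.562 under sunitinib and 0.509 under vehicle. Vascular endothelial-like nuclei had 0.381 (0.329 to 0.44) under sunitinib and 0.369 (0.308 to 0.438) under vehicle, and T lymphocyte-like nuclei 0.109 under sunitinib and 0.144 under vehicle. Within 1 kb of its start sites Vegfc had 5.75 under sunitinib and 5.97 under vehicle in vascular endothelial-like nuclei, where the median gene had 3.47 and 3.31. Endocardial and lymphatic-like nuclei had 8.77 and 10.1 there, with the median gene at 3.31 and 3.22. T lymphocyte-like nuclei had 1.91 and 2.47, below their median gene (3 and 2.68). Pgf (chr12:85166635-85177790, minus strand) was highest in fibroblast-like nuclei, at 2.24 (1.57 to 3.11) under sunitinib and 2.22 (1.5 to 3.17) under vehicle. T lymphocyte-like nuclei had 1.99 under sunitinib and 1.9 under vehicle, within those intervals.

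The receptor genes shared a pattern over the 20 sums of class (with the unnamed one) by library. Pearson's r of the FPM (log2 after adding 1) was 0.83 for Flt1 and Kdr, 0.81 for Flt1 and Flt4 and 0.85 for Kdr and Flt4. Vegfa was not alike to these 3 (r between -0.10 and 0.20). The 20 points share libraries and depth, so these are descriptions. By the same measure the genes most like Flt1 were Cyyr1 (0.946), Ptprr (0.937) and Ptprb (0.935), the last an endothelial receptor phosphatase. Podxl (0.900), Pdgfd (0.890) and Cyyr1 (0.866) were most like Kdr, and Esam (0.891), Pllp (0.883) and Mmrn2 (0.880) most like Flt4. Those most like Vegfa were Myzap (0.844), Acacb (0.807) and Rnf122 (0.786). Nes (0.832), Wars (0.816) and Pde2a (0.816) were most like Nrp1. For Nrp2 they were Tmcc2 (0.937), Ccnd1 (0.908) and Stxbp6 (0.900), and for Vegfc Sulf1 (0.893), Sema6a (0.890) and Fmo6 (0.870). Vegfb and Pgf rest on 253 and 430 fragments, and their nearest genes, Shcbp1 (0.870), Nsmf (0.859) and Trpc5 (0.842) for Vegfb and Sept5 (0.814), Msrb1 (0.803) and Zfp322a (0.792) for Pgf, carry little weight.

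The 3 windows of 500 bp with most fragment ends held 25.4% of the ends over Kdr, although they were 3.12% of its windows. The richest, chr5:75933459-75933958, lay 44500 bp past the start, over the UTR at the gene's end. It held 119 fragments under sunitinib and 84 under vehicle in vascular endothelial-like nuclei (27 and 26.6 FPM). Myeloid-like nuclei had 7 under sunitinib and 7 under vehicle there (14.5 and 13.9 FPM) and cardiomyocyte-like nuclei 1 under sunitinib and 2 under vehicle. In fibroblast-like nuclei it held 5 under sunitinib and 16 under vehicle (4.1 and 15.6 FPM). The log2 ratio was -1.83 (-3.73 to -0.41), fewer under sunitinib, on 21 fragments in all. This ratio was picked out of those of the 27 richest windows in several classes. No background share is given for windows of fibroblast-like nuclei. The window before the Kdr start held 99 under sunitinib and 59 under vehicle (22.5 and 18.7 FPM) in vascular endothelial-like nuclei, and the window at 16000 bp, over a noncoding exon (chr5:75961959-75962458), 94 under sunitinib and 56 under vehicle (21.4 and 17.7 FPM). At 16000 bp, myeloid-like nuclei had no fragment in either library, which differs from the window at the gene's end.

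**Figure D3:**
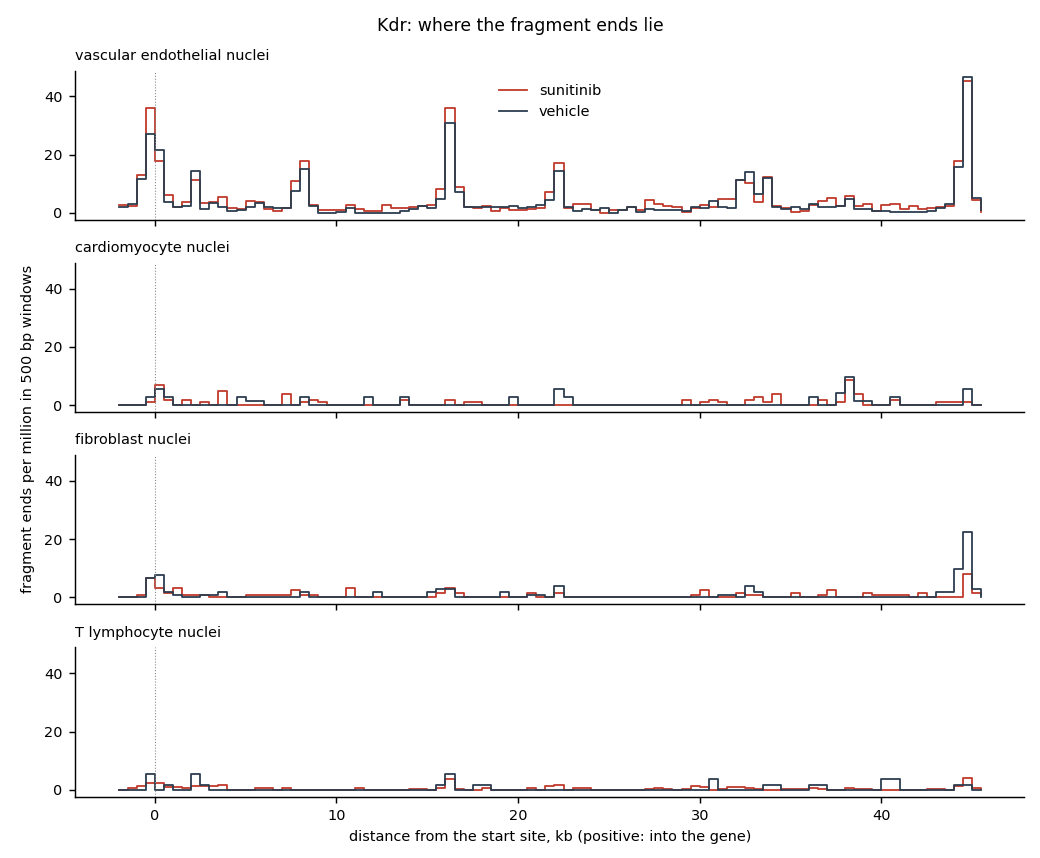
Fragment ends per 1000000 class fragments in 500 bp windows along Kdr, by distance from the start site in kb, in 4 classes of nuclei, with sunitinib and vehicle as lines. In vascular endothelial-like nuclei the start, the window 16000 bp past it and the window at the gene's end are the highest, and the 2 libraries follow each other along the gene.

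Flt1 had a window of the same kind deep in its body, in an intron 146000 bp past the start (chr5:147579512-147580011). Vascular endothelial-like nuclei had 74 fragments under sunitinib and 61 under vehicle there (16.8 and 19.3 FPM), near the 90 under sunitinib and 64 under vehicle of the window upstream of the start (20.5 and 20.3 FPM). Endocardial and lymphatic-like nuclei had 0 fragments under sunitinib and 2 under vehicle in the intron, and 6 under sunitinib and 7 under vehicle upstream of the start. Cardiomyocyte-like nuclei had none in the intron in either library, which allows up to 3.62 FPM under sunitinib and 5.15 under vehicle at the upper end of the 95% Poisson interval. The Nrp1 intron window 78500 bp past the start (chr8:128437104-128437603) held 82 fragments under sunitinib and 60 under vehicle in vascular endothelial-like nuclei (18.6 and 19 FPM), against 2 under sunitinib and 2 under vehicle in mural-like nuclei (4.01 and 4.13 FPM). Upstream of Nrp1, at 1500 bp before the start, mural-like nuclei had 9 under sunitinib and 4 under vehicle (18.1 and 8.25 FPM) and vascular endothelial-like nuclei 70 under sunitinib and 34 under vehicle (15.9 and 10.8 FPM). In Nrp2 the intron window at 21000 bp (chr1:62724285-62724784) held 73 under sunitinib and 50 under vehicle of vascular endothelial-like nuclei, and that at 44500 bp 68 under sunitinib and 44 under vehicle. In the second Flt4 window, an intron 4000 bp past the start (chr11:49613263-49613762), they held 49 under sunitinib and 19 under vehicle. In Pgf the richest window lay over a coding exon 8000 bp past the start (chr12:85169291-85169790), with 25 fragments under sunitinib and 27 under vehicle in vascular endothelial-like nuclei (5.68 and 8.55 FPM) and 25 under sunitinib and 4 under vehicle in T lymphocyte-like nuclei (7.43 and 7.16 FPM). Vegfb and Vegfc had their 3 richest windows within 1 kb of the start.

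The comparison of sunitinib with vehicle asks whether the genes of the kinases that the drug blocks, and of their ligands, were differently open in treated hearts. In vascular endothelial-like nuclei none of the 7 genes with enough fragments to be measured (a sum of 200 or more in the pair of libraries, with 30 or more expected in either) was past 1.5-fold, a change that 0.294% of 9874 measured genes showed. Kdr was the highest of them: 1022 fragments under sunitinib and 622 under vehicle, or 232 FPM under sunitinib and 197 under vehicle (log2 ratio 0.24, 0.09 to 0.38). Nrp1 had 321 FPM under sunitinib and 287 under vehicle (log2 ratio 0.16, 0.04 to 0.29). Flt1, with the most fragments, did not differ beyond counting error, at 401 FPM under sunitinib and 412 under vehicle and -0.04 (-0.14 to 0.07). The same held for Flt4 (0.04, -0.20 to 0.28), Nrp2 (-0.00, -0.13 to 0.13), Vegfa (0.07, -0.19 to 0.34) and Vegfc (0.04, -0.28 to 0.38). Vegfb and Pgf, below the count minimum, had 40 and 71 fragments under sunitinib and 28 and 59 under vehicle.

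Among all measured genes in these nuclei 10.4% had an interval that excludes no difference, and 88.1% had a lower ratio than Kdr (median 0.04). The Kdr ratio was 0.25 (0.09 to 0.42) and 0.23 (-0.08 to 0.56) in 2 subclusters of these nuclei, led by Aqp1 and Aplnr and by Btnl9 and Crispld1 and taken apart after the data had been seen. With fragments shorter than nucleosomal DNA alone it was 0.07 (-0.15 to 0.29), and Flt1 was then 0.12 (-0.05 to 0.31). The 10 summed vascular endothelial markers were also higher under sunitinib, by 0.10 (0.04 to 0.15). The T lymphocyte markers were higher in these nuclei too, by 0.42 (0.27 to 0.58) with 10 of 10 higher and summed levels of 230 FPM under sunitinib and 172 under vehicle; their part in the ratios was not tested. Between the 2 subclusters Vegfc differed, being higher in the one led by Btnl9 by 0.70 (0.22 to 1.15) under sunitinib and 0.61 (0.03 to 1.14) under vehicle. For Flt1, Kdr, Flt4, Nrp1, Nrp2, Vegfa and Vegfb the intervals of that difference held 0 in both libraries; Pgf stood at 0.29 (-0.61 to 1.07) and -1.49 (-3.29 to -0.30).

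By window, 20 of the 27 richest windows held at least 50 fragments of vascular endothelial-like nuclei, and 3 of the 20 were past 1.5-fold. The share among 30135 windows of that depth across the genome was 9.50%. The 3 were the Flt4 intron at 4000 bp, with 49 fragments under sunitinib and 19 under vehicle (0.87, 0.10 to 1.74), the Nrp1 window at 500 bp with 78 under sunitinib and 37 under vehicle (0.59, 0.02 to 1.20) and the Pgf exon window with 25 under sunitinib and 27 under vehicle (-0.59, -1.43 to 0.25). A ratio as high as that of the Flt4 intron was found in 1.7% of the windows of the genome. The Kdr window at the gene's end stood at 0.02 (-0.39 to 0.44), and those before the start and at 16000 bp at 0.26 each.

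In endocardial and lymphatic-like nuclei Kdr stood at 0.91 (0.39 to 1.41), from 63 fragments under sunitinib and 71 under vehicle, which is below the count minimum. Vascular endothelial markers were higher there by 0.17 (0.01 to 0.33) and lymphatic markers by 0.43 (0.06 to 0.80), while endocardial markers stood at -0.06 (-0.29 to 0.16). Whether the make-up of this mixed class moved Kdr was not tested. Flt1 (0.19, -0.17 to 0.53), Nrp1 (-0.17, -0.61 to 0.25) and Nrp2 (0.27, -0.16 to 0.67) were measured and did not differ beyond counting error. None of the 3 was past 1.5-fold, against 2.56% of measured genes in this class.

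**Figure D4:**
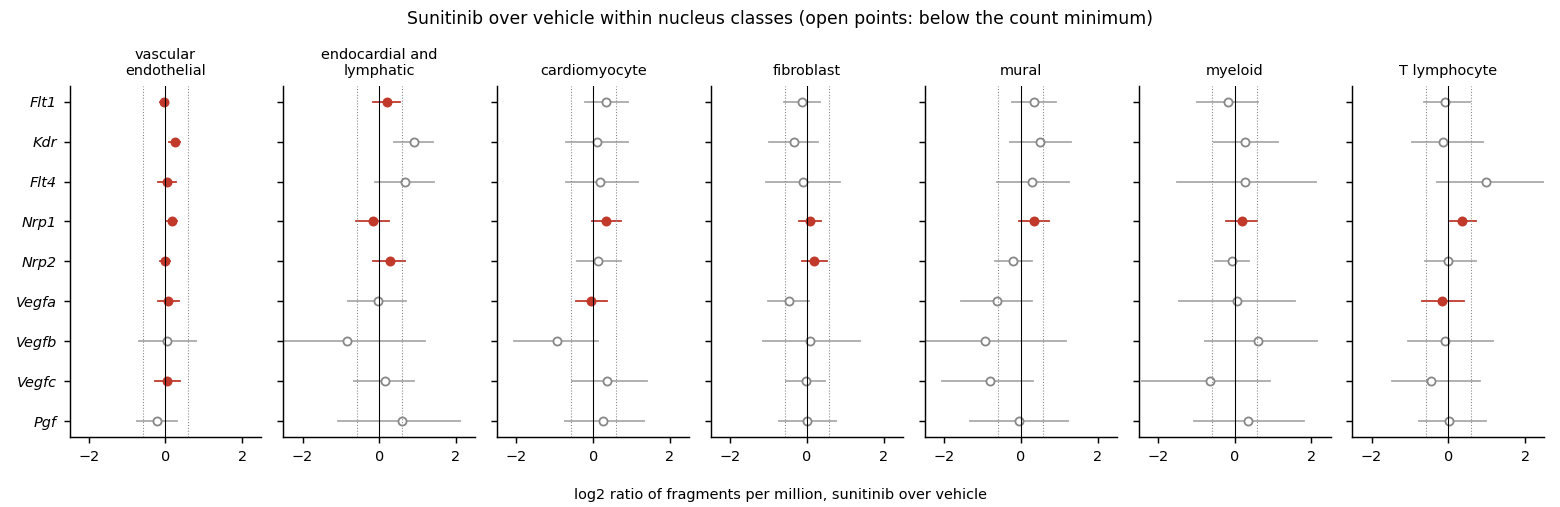
Log2 ratio of FPM, sunitinib over vehicle, for the 9 genes in 7 classes of nuclei, with 95% counting intervals; filled points are genes over the count minimum and dotted lines mark 1.5-fold. Filled points stay within the dotted lines in every class, and Kdr in vascular endothelial-like nuclei (0.24) lies right of 0.

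In cardiomyocyte-like nuclei Vegfa had 129 fragments under sunitinib and 94 under vehicle, or 127 FPM under sunitinib and 131 under vehicle (log2 ratio -0.06, -0.45 to 0.35). The median measured gene of this class stood at -0.09. Nrp1 was at 0.34 (-0.04 to 0.73). Neither was past 1.5-fold, against 2.39% of measured genes. Of 3 measured regulators of Vegfa transcription in this class 1 was past 1.5-fold: Ppargc1a, a transcriptional coactivator of mitochondrial and angiogenic genes, was lower, with 208 fragments under sunitinib and 288 under vehicle (-0.98, -1.24 to -0.72). In these nuclei the cardiomyocyte markers were lower (-0.11, -0.17 to -0.05), and the markers of fibroblasts (0.50, 0.01 to 1.01), epicardial or mesothelial cells (0.63, 0.15 to 1.14) and B lymphocytes (0.41, 0.01 to 0.83) were higher. Their part in the Ppargc1a ratio was not tested.

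Nrp1 was measured in 7 classes and was higher under sunitinib in 6 of them, with log2 ratios from -0.17 to 0.35. Of 115 genes measured in the same 7 classes, 13.9% were higher in at least 6. The T lymphocyte markers were higher in fibroblast-like nuclei by 0.90 (0.65 to 1.16), in myeloid-like nuclei by 0.80 (0.38 to 1.22) and in mural-like nuclei by 0.51 (0.11 to 0.93), and stood at 0.17 (-0.11 to 0.46) in cardiomyocyte-like nuclei. Their part in the Nrp1 ratios was not tested. In T lymphocyte-like nuclei it had 649 fragments under sunitinib and 84 under vehicle, or 193 FPM under sunitinib and 150 under vehicle (0.35, 0.03 to 0.71). Their T lymphocyte markers were also higher, by 0.27 (0.15 to 0.39), and 7.40% of the measured genes of this class had an interval that excludes no difference. Vegfa there stood at -0.18 (-0.69 to 0.40). Neither was past 1.5-fold, against 3.05% of measured genes. In mural-like nuclei Nrp1 stood at 0.34 (-0.04 to 0.73), with 0.279% of genes past 1.5-fold, and in myeloid-like nuclei at 0.18 (-0.22 to 0.59), with 0% past it. Fibroblast-like nuclei had Nrp1 at 0.07 (-0.22 to 0.36) and Nrp2 at 0.19 (-0.12 to 0.51), and neither was past 1.5-fold, against 0.754%. Over the 9 named classes, 18 of 81 ratios were measured and 3 of these 18 had an interval that excludes no difference, those of Kdr and Nrp1 in vascular endothelial-like nuclei and of Nrp1 in T lymphocyte-like nuclei. Over all genes 10.0% of 18203 measured ratios in these classes had such an interval.

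The other genes of the pathway were counted by list. In vascular endothelial-like nuclei, of the 10 regulators of Vegfa transcription 9 were measured (median 0.11), of 32 genes of VEGF receptor signalling 31 (median 0.08), of 12 semaphorins and plexins 8 (median 0.01) and of 11 genes of VEGF binding and processing 5 (median 0.07). None of these 4 lists had a gene past 1.5-fold in either direction, against 0.294% of all measured genes, and the median of all measured genes was 0.04. In T lymphocyte-like nuclei 1 of 6 measured Vegfa regulators was past 1.5-fold, the oxygen sensor Egln1, with 219 fragments under sunitinib and 23 under vehicle (0.63, 0.04 to 1.35), against 3.05% of all measured genes of that class. The T lymphocyte markers were higher in the same nuclei by 0.27 (0.15 to 0.39), and their part in the Egln1 ratio was not tested.

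Over whole libraries all 9 genes were measured and none was past 1.5-fold, against 2.70% of 16726 genes. Flt1 had 3662 fragments under sunitinib and 3231 under vehicle, or 155 FPM under sunitinib and 173 under vehicle (-0.16, -0.23 to -0.09). Nrp1 had 180 FPM under sunitinib and 155 under vehicle (0.21, 0.15 to 0.28), Vegfc 29.5 under sunitinib and 33.9 under vehicle (-0.20, -0.36 to -0.04) and Nrp2 122 under sunitinib and 131 under vehicle (-0.10, -0.18 to -0.02). Kdr (0.10), Vegfa (0.10), Vegfb (0.19), Pgf (0.11) and Flt4 (-0.11) had intervals that hold 0. At these depths an interval that excludes no difference was found for 55.0% of all genes, and the median gene stood at 0.10. T lymphocyte-like nuclei made up 34.7% of called nuclei under sunitinib and 8.94% under vehicle. Among called nuclei outside the lymphoid classes Flt1 stood at 0.04 (-0.05 to 0.13), Kdr at 0.26 (0.14 to 0.39) and Nrp1 at 0.16 (0.07 to 0.25), so the lower Flt1 of the whole library was not found there. In a whole library fewer cells of a type and less open chromatin per cell cannot be told apart. Of 32 measured genes of VEGF receptor signalling 1 was past 1.5-fold, Sh2d2a, an adaptor of VEGFR2 and of T cells, which was higher (0.92, 0.69 to 1.14). Of 10 measured regulators of Vegfa transcription 1 was, Ppargc1a, which was lower (-0.67, -0.80 to -0.54). None of the 12 semaphorins and plexins or of the 11 genes of VEGF binding and processing was, against 2.70% of all genes. The T lymphocyte markers were higher over whole libraries by 0.87 (0.83 to 0.92). Their part in the Sh2d2a ratio was not tested.

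The addition of Yoda1 to sunitinib was compared over whole libraries, with the 258020 fragments of the sunitinib plus Yoda1 library that were backed by at least 100 read pairs. The sunitinib and vehicle libraries entered with all their fragments, none of which had 100 read pairs. The depth of the sunitinib plus Yoda1 library was low. Against sunitinib 3 of the 9 genes were measured and none was past 1.5-fold, while 16.8% of 844 measured genes were. Flt1 had 29 fragments under sunitinib plus Yoda1, or 112 FPM, against 155 FPM under sunitinib (-0.44, -1.04 to 0.06). Nrp1 had 48 fragments (0.06, -0.39 to 0.46) and Nrp2 24 (-0.36, -1.04 to 0.18). Kdr had 25, or 96.9 FPM under sunitinib plus Yoda1 and 78.5 FPM under sunitinib (0.33, -0.33 to 0.87), and Vegfa 16 (0.08, -0.77 to 0.75). Vegfc had 12 (0.71, -0.31 to 1.47), Flt4 9 (-0.15, -1.36 to 0.71), Vegfb 3 and Pgf 2. The summed cardiomyocyte markers of the sunitinib plus Yoda1 library were higher than in sunitinib by 1.05 (0.90 to 1.19), the T lymphocyte markers were lower (-1.28, -1.68 to -0.93) and the vascular endothelial markers stood at -0.03 (-0.26 to 0.19).

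Against vehicle, which uses the same sunitinib plus Yoda1 fragments, 1 of 3 measured genes was past 1.5-fold, against 11.7% of 806 measured genes. It was Flt1, at 112 FPM under sunitinib plus Yoda1 and 173 FPM under vehicle (-0.60, -1.20 to -0.10), lower than in vehicle. Nrp1 stood at 0.28 (-0.18 to 0.67), Nrp2 at -0.46 (-1.14 to 0.09) and Kdr at 0.43 (-0.23 to 0.97). The summed cardiomyocyte markers of the sunitinib plus Yoda1 library were higher than in vehicle by 0.98 (0.82 to 1.12). Lower were the T lymphocyte markers (-0.40, -0.80 to -0.05) and the epicardial or mesothelial ones (-1.16, -2.01 to -0.50), and the vascular endothelial markers stood at -0.02 (-0.25 to 0.20). The part of cell make-up in the Flt1 ratio was not tested.

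**Figure D5:**
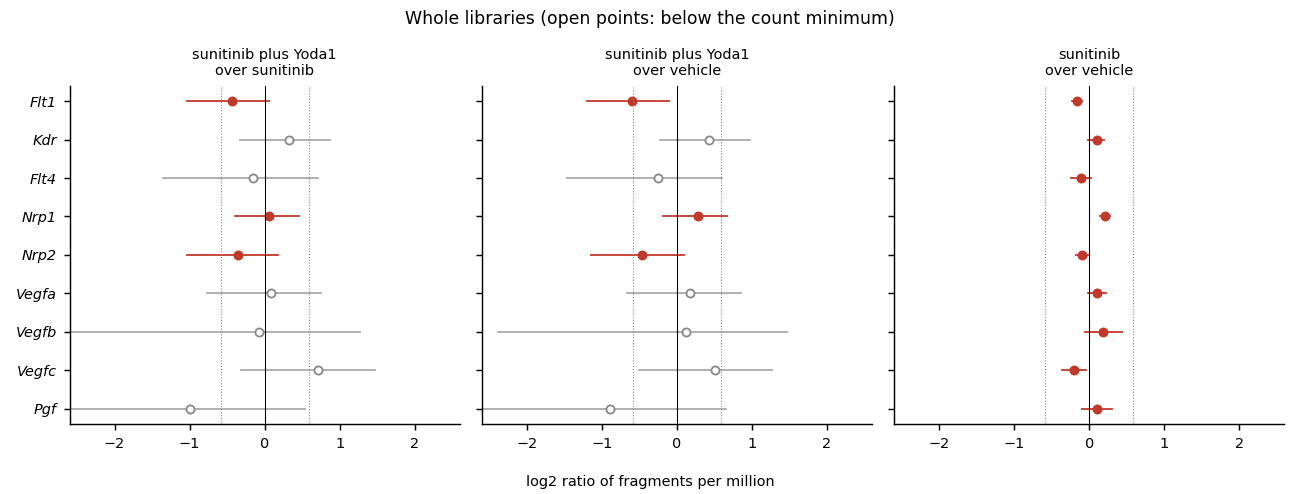
Log2 ratios of FPM over whole libraries for the 9 genes, with 95% counting intervals; filled points are genes over the count minimum and dotted lines mark 1.5-fold. The intervals with sunitinib plus Yoda1 are wide, some running past the left edge, and only Flt1 over vehicle (-0.60) lies past the dotted line as a filled point.

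The Flt1 result depended on which fragments were used. With all fragments of the sunitinib plus Yoda1 library, of which 42.1% had the same ends as a fragment of another barcode, Flt1 was higher than in sunitinib (1.26, 1.06 to 1.46) and than in vehicle (1.10, 0.90 to 1.30). It then had 216 fragments at 153 distinct positions, up to 7 barcodes at 1 position, whereas the 29 fragments backed by at least 100 read pairs lay at 29 positions. Among genes of VEGF receptor signalling, 9 were measured in each of the 2 comparisons. Past 1.5-fold were 3 of 9 over sunitinib, against 16.8% of all measured genes, and 2 of 9 over vehicle, against 11.7%. Shb, an adaptor bound by VEGFR2, was past 1.5-fold higher than in sunitinib (0.78, 0.41 to 1.12) and in vehicle (0.65, 0.27 to 0.98). Prkcb, a protein kinase C, was past it lower (-0.95, -1.61 to -0.42, and -0.70, -1.36 to -0.16), and Nck2, an adaptor, lower than in sunitinib (-0.63, -1.30 to -0.08). Both comparisons share the sunitinib plus Yoda1 library. Its fragments came from another software version and were the only ones filtered by read pairs. Version, filter and treatment cannot be told apart. The part of cell make-up in the Shb, Prkcb and Nck2 ratios was not tested.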

How the data were processed

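Single-nucleus ATAC fragments of 3 libraries (sunitinib plus Yoda1, sunitinib, vehicle; 1 each, grouped by title and design text) were analysed. The authors used cellranger-arc (mm10), per the file headers in version 2.0.2 for sunitinib plus Yoda1 and 2.0.0 for sunitinib and vehicle. The deposited value is a count of read pairs per unique fragment and barcode, not normalized. A nucleus had at least 1000 fragments, start-site enrichment of at least 4 and a nucleosome ratio under 4; doublets were not removed. Nuclei were clustered by latent semantic indexing (60000 tiles of 5 kb, 30 components, 20 neighbours, Leiden resolution 0.8) and named where 3 markers were at least 2-fold higher than elsewhere. Fragments over each GENCODE gene and 2 kb upstream, or within 1 kb of its start sites, were summed per class; for log2 ratios 0.5 was added to both counts, and 95% intervals were exact and conditional on their sum. Reads of overlapping genes cannot be split. Members, lists, markers and thresholds were chosen with earlier results of these data known. Named genes were the 9 members, pathway genes past 1.5-fold (2 each way per comparison), the 3 most alike genes and the 3 richest windows per member. Functions were tested on simulated data. Python 3.11.15, numpy 2.4.6, scipy 1.17.1, scikit-learn 1.9.0 and leidenalg 0.10.2 were used.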

Additional observations from a re-analysis of the deposited data

Results flagged for a closer look

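The Kdr ratio of sunitinib over vehicle did not have the same direction in every class of nuclei. The log2 ratio was 0.24 (0.09 to 0.38) in vascular endothelial-like nuclei and 0.91 (0.39 to 1.41) in endocardial and lymphatic-like nuclei, both higher under sunitinib, against -1.49 (-2.96 to -0.25) in B lymphocyte-like nuclei, which was lower. The difference between the classes was not tested. The values in endocardial and lymphatic-like and in B lymphocyte-like nuclei were below the count minimum. In the other named classes Kdr stood between -0.35 (fibroblast-like) and 0.49 (mural-like), with intervals that hold 0. Of the 81 ratios of the 9 genes by class, measured or not, 5 had an interval that excludes no difference. Of the 18 that were measured, 3 had one, against 10.0% of measured ratios over all genes in these classes. The B lymphocyte-like value rests on 8 fragments under sunitinib and 17 under vehicle; in these nuclei the vascular endothelial markers stood at -0.54 (-0.87 to -0.21), the B lymphocyte markers at -0.64 (-1.04 to -0.24) and the T lymphocyte markers at 0.96 (0.70 to 1.24).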

How the results depend on the processing

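Of 307 values recomputed under alternatives, 262 stayed within the counting interval of the value as reported, 44 left it, and 1 that was past 1.5-fold changed sign; 47 values under 1.5-fold as reported changed sign too. The 1 was Flt1 in sunitinib plus Yoda1 over vehicle, at 1.10 with all fragments of that library. Over sunitinib Flt1 also changed sign, to 1.26, with 1 gene past 1.5-fold. The share of all genes past it with all fragments is not given here. Within 1 kb of start sites Flt1 was 0.16 in vascular endothelial-like nuclei and -0.02 in whole libraries of sunitinib over vehicle. For sunitinib plus Yoda1 it was -1.46 (-7.35 to 0.44) over sunitinib and -1.48 (-7.37 to 0.43) over vehicle. Both of these rest on 1 sunitinib plus Yoda1 fragment and are below the count minimum. Nrp1 was then 0.28 in whole libraries of sunitinib over vehicle, where the median gene stood at 0.27. Vegfa in vascular endothelial-like over cardiomyocyte-like nuclei was -0.08. For sunitinib plus Yoda1 over vehicle none of the 9 genes then reached the count minimum, so none could be called past 1.5-fold. With fragments shorter than nucleosomal DNA, Flt1 and Kdr in vascular endothelial-like nuclei were 0.12 and 0.07, and whole-library Flt1 was -0.07. Nrp1, at 0.90, was then the 1 gene past 1.5-fold in T lymphocyte-like nuclei. In sunitinib plus Yoda1 over vehicle 0 genes were past it, as also with at least 50 read pairs. For these fragments and read pairs, the numbers of genes measured and the shares of all genes past 1.5-fold are not given here. Scaled to start-site fragments, whole-library Flt1 was -0.39 and Nrp1 -0.02, with the median gene at -0.13. Flt1 and Nrp1 were -0.23 and 0.11 in called nuclei, and Flt1 was 0.04 outside lymphoid classes. The cause of these moves was not tested. No paired analysis was possible because each group has 1 library. With the member tiles kept 98.8% of nuclei kept their class, and 99.1% did at resolution 1.5. The alternatives of the summed-marker scaling and the subclusters were added after seeing the data. In most classes depth left 7 or more of the 9 genes unmeasured.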
